A study of Mus musculus with 6 samples.

Results

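The antigen receptor of B cells consists of membrane immunoglobulin and the signalling chains CD79A and CD79B, whose tyrosine-based tails pass the signal of bound antigen to the cell. A coreceptor that includes CD21 (encoded by Cr2) and CD81 lowers the amount of complement-tagged antigen that the cell needs, and CD22, Siglec-G, CD72 and FcγRIIb carry inhibitory tails that recruit phosphatases and dampen the signal. CD20 (Ms4a1) is a tetraspan protein of the B cell membrane found near the receptor.

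The 9 genes described are Cd79a, Cd79b, Cr2, Cd81, Cd22, Siglecg, Cd72, Fcgr2b and Ms4a1, taken by their symbols from a table of 55421 genes. All 9 passed the filter on low values, a mean of at least 10 normalized counts over the libraries, which left 17640 genes to test. mRNA was sequenced from splenic B cells cultured for 24 h with 5 μg/ml LPS and 5 ng/ml IL-4, in 3 WT libraries (genotype CD21-cre) and 3 hnRNPL-deficient libraries (genotype hnRNPL F/F CD21-cre). Cre is driven by regulatory sequence of Cr2, itself among the genes described, and is carried by both groups, as is the Rosa mT/mG reporter, whose GFP marks cells in which Cre has acted and was used to sort them. The libraries came from separate mice of both sexes, and ages are not given in the labels.

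Hnrnpl, the deleted gene, stood at normalized counts of 24371, 25579.7 and 24174 for WT and 2178, 1519 and 1297 for hnRNPL-deficient mice, or 6.74% of the WT mean. The libraries held 40395186 to 75180749 reads on genes, the fewest in hnRNPL-deficient replicate 3. WT replicate 3 and hnRNPL-deficient replicate 2 had the transcript pattern of female mice and the other 4 that of males. All 10 B cell markers checked were expressed, and none of them was called different. Among B cell subset markers, Ccr7 and Cxcr4 (follicular), Cd93 (transitional) and Spn and Bhlhe41 (B-1) rose by 0.76 to 0.99 on the log2 scale and Zbtb32 (B-1) fell by 0.87, and their part in the results was not tested. Of 8 T cell markers, 6 were under 10 normalized counts in every library.

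RefSeq promoter windows on GRCm38.p6, from 250 bases before to 50 after a RefSeq start site, were found for 7 of the 9 genes. The start site of the Cd22 window lies 1314 bases inside the gene as annotated in the counts, and those of the other printed windows at most 11 bases inside it. They are printed for the 3 genes called higher and for Cd22, the gene with the smallest adjusted p among those that were lower, so that the regulatory sequence can be read beside the values. Capitals mark matches, on either strand, to 6 motifs: the octamer ATGCAAAT, the EBF1 motif (TCCC, any 2 bases, GGGA), the E-box CAGGTG, the PU.1 core GAGGAA, the NF-kB motif (GGGA, any 4 bases, CC) and the CA run CACACA, the kind of repeat that hnRNPL is known to bind in RNA.
Cr2 promoter, chr1:195176670-195176969, minus strand: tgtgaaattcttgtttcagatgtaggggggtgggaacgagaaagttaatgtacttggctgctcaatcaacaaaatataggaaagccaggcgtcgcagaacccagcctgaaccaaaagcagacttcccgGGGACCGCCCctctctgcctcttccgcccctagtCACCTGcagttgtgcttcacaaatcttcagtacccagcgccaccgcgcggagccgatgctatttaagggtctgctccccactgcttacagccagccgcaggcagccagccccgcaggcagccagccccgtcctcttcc
Cd81 promoter, chr7:143052500-143052799, plus strand: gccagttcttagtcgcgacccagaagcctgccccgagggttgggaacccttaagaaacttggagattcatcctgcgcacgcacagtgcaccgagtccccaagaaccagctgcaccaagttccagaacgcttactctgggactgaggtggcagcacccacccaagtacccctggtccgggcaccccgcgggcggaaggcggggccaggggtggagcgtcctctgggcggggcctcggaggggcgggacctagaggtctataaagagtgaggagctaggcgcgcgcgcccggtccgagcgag
Cd72 promoter, chr4:43454577-43454876, minus strand: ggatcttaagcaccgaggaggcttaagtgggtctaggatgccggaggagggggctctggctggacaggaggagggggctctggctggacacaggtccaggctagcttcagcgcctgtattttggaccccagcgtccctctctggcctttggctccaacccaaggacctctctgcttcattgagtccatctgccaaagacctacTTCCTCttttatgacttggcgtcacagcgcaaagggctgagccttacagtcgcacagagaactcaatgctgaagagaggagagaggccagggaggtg
Cd22 promoter, chr7:30878979-30879278, minus strand: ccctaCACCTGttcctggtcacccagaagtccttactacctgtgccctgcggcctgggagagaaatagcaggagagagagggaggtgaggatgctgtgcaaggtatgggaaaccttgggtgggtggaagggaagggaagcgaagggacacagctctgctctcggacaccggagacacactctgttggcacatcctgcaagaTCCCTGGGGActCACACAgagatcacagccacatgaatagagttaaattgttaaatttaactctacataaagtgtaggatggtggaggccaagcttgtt
The Cr2 window held an NF-kB motif 122 bases and an E-box 88 bases before the start site. The Cd72 window held the PU.1 core 47 bases before it, and the Cd22 window held an E-box at 245 bases, the EBF1 motif at 49 and a CA run at 37. None of the 6 motifs occurred in the Cd81 window, whose GC content was 65.67%. Of 32851 promoter windows of this length, 1.735% held the octamer, 0.9041% the EBF1 motif, 20.21% the E-box, 28.28% the PU.1 core, 20.73% the NF-kB motif and 21.09% the CA run.

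In hnRNPL-deficient cells Cr2, Cd81 and Cd72 rose, by 1.82-fold, 2.01-fold and 1.69-fold. A gene was called where limma's adjusted p was under 0.1 and the change at least 1.5-fold, which was met by 3 of the 9 genes in the higher direction and by 0 in the lower. Among all genes tested, 7.28% were called higher and 4.08% lower. By adjusted p alone, with no fold required, 3 of the 9 were higher and 2, Cd22 and Ms4a1, were lower, against 10% and 7.97% of all genes. The WT and hnRNPL-deficient libraries did not overlap for these same 5 genes, 3 higher and 2 lower, against 17.7% and 16.3% of all genes. The median log2 difference was 0.27 over the 9 genes and -0.03 over all genes tested. In bulk RNA, fewer cells of a type and less RNA per cell cannot be told apart, and this holds for every value that follows.

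**Figure D1:**
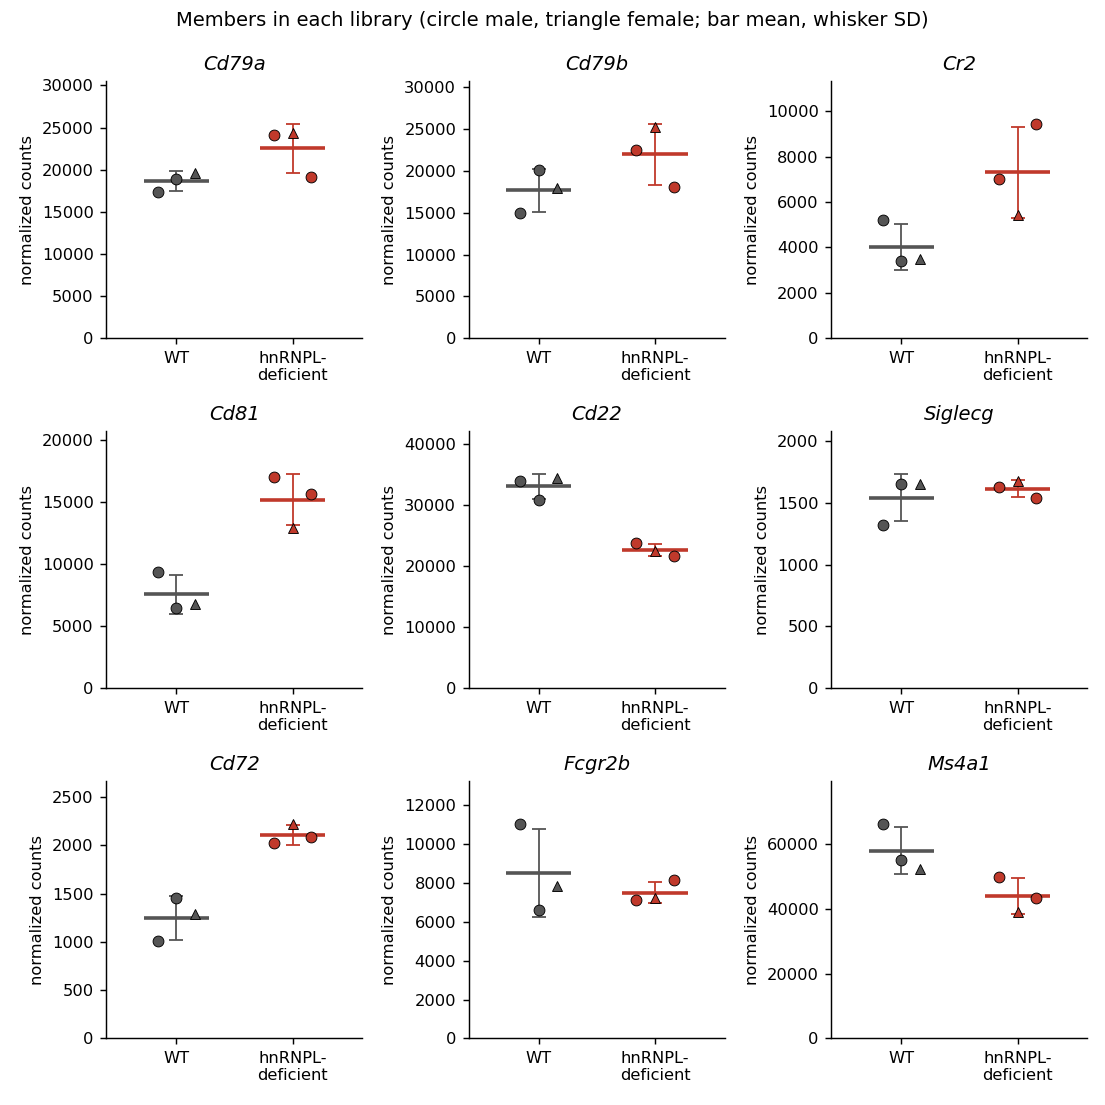
Normalized counts (vertical axes, linear, from 0) of the 9 genes in the 3 WT and 3 hnRNPL-deficient libraries, 1 panel a gene, with points for libraries and bars for the mean ± SD. Every hnRNPL-deficient library lies above every WT library for Cr2, Cd81 and Cd72 and below for Cd22 and Ms4a1, and the groups overlap for Cd79a, Cd79b, Siglecg and Fcgr2b.

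The signalling chains come first. Cd79a (chr7:24897381-24902197, mm10) was measured in every library. Its normalized counts were 17288, 18943 and 19661 for WT and 24098, 24298 and 19149 for hnRNPL-deficient mice. The first 2 hnRNPL-deficient libraries were above all WT libraries, while the third lay inside the WT range. The log2 difference was 0.27 (SE 0.120, 95% interval -0.01 to 0.54, limma adjusted p = 0.192). It was 0.42 (adjusted p = 0.0535) under quantile normalization and 0.38 (adjusted p = 0.0610) without hnRNPL-deficient replicate 3.

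Cd79b (chr11:106311341-106314762), which pairs with CD79A, showed normalized counts of 15004, 20082 and 18010 for WT and 22557, 25322 and 18065 for hnRNPL-deficient mice. The pattern was that of Cd79a, with the third hnRNPL-deficient library inside the WT range. Its log2 difference was 0.31 (SE 0.153, 95% interval -0.04 to 0.66, limma adjusted p = 0.235). It was 0.195 without WT replicate 1 and 0.20 without hnRNPL-deficient replicate 2, and 0.46 (adjusted p = 0.0914) under quantile normalization. The ratio of Cd79a to Cd79b was 1.15, 0.943 and 1.09 in WT and 1.07, 0.960 and 1.06 in hnRNPL-deficient libraries, so that the chains stayed near an equal number of counts in each library (log2 difference -0.04, two-sided exact permutation p = 0.6). The sign of that small difference turned without WT replicate 1 (0.02) and without hnRNPL-deficient replicate 2 (0.01).

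Cr2 (chr1:195136811-195176716) encodes the complement receptor CD21 and, by splicing, CD35, which counts per gene do not separate. Its normalized counts were 5189, 3382 and 3474 for WT and 7031, 5425 and 9441 for hnRNPL-deficient mice. Its lowest hnRNPL-deficient library was above the highest WT library by a small margin, and both groups were spread widely. The mean was 4015 ± 1017 (SD, n = 3) in WT and 7299 ± 2021 (SD, n = 3) in hnRNPL-deficient cells, a log2 difference of 0.85 (SE 0.225, 95% interval 0.34 to 1.37, limma adjusted p = 0.0444). The call was lost without WT replicate 2 (0.74, adjusted p = 0.126), without WT replicate 3 (0.76, adjusted p = 0.145) and without hnRNPL-deficient replicate 3 (0.65, adjusted p = 0.110).

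CD21 is known to be high on marginal zone B cells, so the markers of these cells are given beside it. Of 8 such markers tested, Cd1d1 rose (log2 difference 1.62, adjusted p = 0.0094) and Dtx1, a regulator of Notch signalling, fell by 1.94 on the log2 scale (adjusted p = 0.000781). S1pr3, Plxnd1 and Tm6sf1 were lower by adjusted p alone. The summed level of the markers was 14608.5 to 15462.2 normalized counts in WT and 9949.43 to 10315.5 in hnRNPL-deficient libraries. Most of this fall came from S1pr3 (means 8784 in WT and 6547 in hnRNPL-deficient libraries) and Dtx1 (2762 and 726). The rise of Cd1d1 (58.4 and 178) hardly enters the sum. The part of marginal zone cells in the Cr2 result was not tested. Follicular dendritic cells also carry CD21, and 5 markers of these or stromal cells were listed. Pdpn was at 0, Cxcl13 at most at 1.01 and Col1a1 at most at 1.73 normalized counts in every library. Fdcsp was not among the genes measured. Pecam1, the only 1 tested, averaged 2572 in WT and 3723 in hnRNPL-deficient libraries (log2 difference 0.53, limma adjusted p = 0.0188). The part of these cells in the Cr2 result was not tested.

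Cd81 (chr7:143052739-143067934) encodes a tetraspanin of the coreceptor. Its normalized counts were 9418, 6462 and 6834 for WT and 17023, 12975 and 15692.5 for hnRNPL-deficient mice. All hnRNPL-deficient libraries were well above all WT libraries. The mean went from 7571 ± 1610 (SD, n = 3) to 15230.1 ± 2063 (SD, n = 3), a log2 difference of 1.02 (SE 0.162, 95% interval 0.65 to 1.39, limma adjusted p = 0.00684). It was called in all 19 alternative settings and leaving out single libraries gave 0.92 to 1.19. The ratio of Cr2 to Cd81 was 0.551, 0.523 and 0.508 in WT and 0.413, 0.418 and 0.602 in hnRNPL-deficient libraries, which overlapped (two-sided exact permutation p = 0.4).

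The inhibitory receptors did not move together. Cd22 (chr7:30865402-30880342), a lectin that binds sialic acid, showed normalized counts of 33973, 30709 and 34388 for WT and 23718, 22425 and 21704 for hnRNPL-deficient mice. All hnRNPL-deficient libraries were below all WT libraries, with little spread in either group. The log2 difference was -0.55 (SE 0.0957, 95% interval -0.76 to -0.33, limma adjusted p = 0.00987), which passed the adjusted p but was smaller than 1.5-fold. Without WT replicate 2 it was -0.60 and Cd22 was called lower. The gene lies 2.04 Mb from Hnrnpl on chromosome 7, where Cd79a, at 3.91 Mb, and Siglecg, at 14.6 Mb, had log2 differences of 0.27 and 0.07. Of 487 genes tested within 20 Mb of Hnrnpl, 9.45% were called higher and 5.54% lower, against 7.22% and 4.03% of the 17153 tested elsewhere. The part of position in the Cd22 value was not tested.

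Siglecg (chr7:43408204-43418358), the other sialic acid-binding inhibitory receptor of the set, showed normalized counts of 1323, 1654 and 1652 for WT and 1632, 1678 and 1538 for hnRNPL-deficient mice. The groups overlapped, and WT replicate 1 was the lowest library. The log2 difference was 0.07 (95% interval -0.21 to 0.35, limma adjusted p = 0.734) and turned to -0.03 without WT replicate 1.

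Because CD22 and Siglec-G bind like ligands, their ratio was compared. Siglecg to Cd22 was 0.0389, 0.0539 and 0.0480 in WT and 0.0688, 0.0748 and 0.0709 in hnRNPL-deficient libraries, with no overlap. Cd22 to Cd79a was 1.97, 1.62 and 1.75 in WT and 0.984, 0.923 and 1.13 in hnRNPL-deficient libraries, again with no overlap (means 1.78 ± 0.174 and 1.01 ± 0.108, SD, n = 3). Both ratios gave a two-sided exact permutation p = 0.1, the smallest that 3 libraries against 3 allow, and an adjusted p = 0.25 over the 5 ratios compared.

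**Figure D2:**
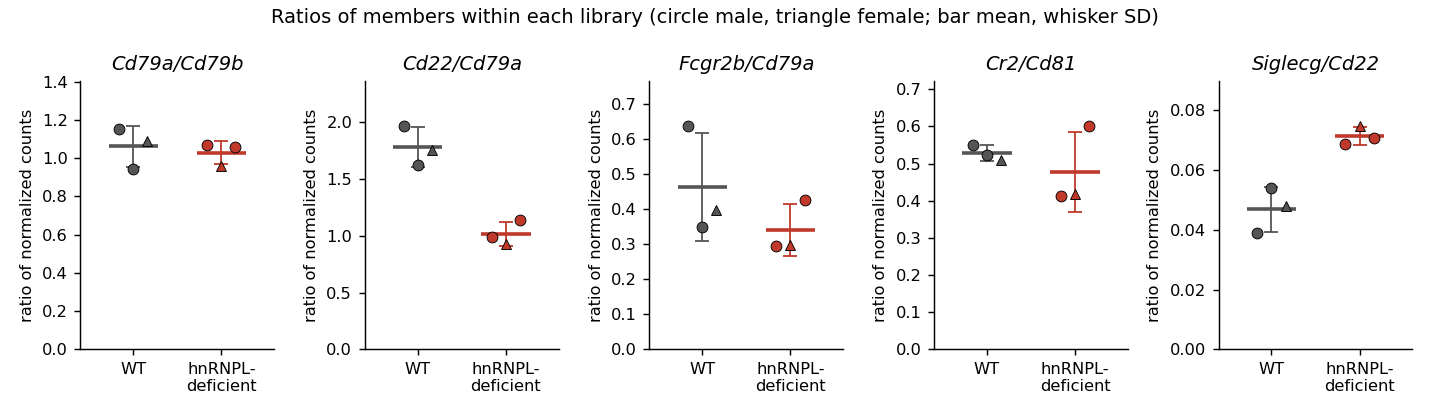
Ratios of normalized counts within each library (vertical axes, linear, from 0) for the 5 pairs of genes compared, with points for the 3 WT and 3 hnRNPL-deficient libraries and bars for the mean ± SD. Cd22 to Cd79a is lower and Siglecg to Cd22 higher in every hnRNPL-deficient library than in any WT library, and the groups overlap for the other 3 ratios.

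Cd72 (chr4:43446462-43454628), an inhibitory receptor of the C-type lectin kind, showed normalized counts of 1007, 1456 and 1285 for WT and 2022, 2220.21 and 2086 for hnRNPL-deficient mice. The hnRNPL-deficient libraries lay close together, above all WT libraries. The mean went from 1249 ± 226 (SD, n = 3) to 2109.5 ± 101 (SD, n = 3), a log2 difference of 0.77 (SE 0.145, 95% interval 0.44 to 1.10, limma adjusted p = 0.0133). With each library left out it ranged from 0.62 to 0.89.

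Fcgr2b (chr1:170958617-170976547) encodes FcγRIIb, which dampens the receptor when antigen is bound by IgG. Its normalized counts were 11013, 6626 and 7820.18 for WT and 7131, 7218 and 8138 for hnRNPL-deficient mice. WT replicate 1 stood above the other 5 libraries, which lay close together. The log2 difference was -0.15 (95% interval -0.55 to 0.25, limma adjusted p = 0.618) and turned to 0.06 without WT replicate 1. Its ratio to Cd79a overlapped between groups (two-sided exact permutation p = 0.3). Fcgr2b and Fcgr3 are similar in sequence, and how reads were split between them is uncertain.

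Myeloid cells also express Fcgr2b. Of 10 myeloid markers, 6 were under 10 normalized counts in every library, and S100a8 and S100a9 were at 0, while Adgre1 rose from 278 to 1308 (log2 difference 2.24, adjusted p = 0.000139). Of the other tested markers, Fcgr4 had a log2 difference of -0.91 (adjusted p = 0.216), Itgam one of -0.07 and Ms4a7 one of 0.51. The summed level of the list was 327.689 to 412.192 for WT and 1288 to 1419 for hnRNPL-deficient mice, and Adgre1 made up most of it in both groups. The part of myeloid cells in the Fcgr2b values was not tested.

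Ms4a1 (chr19:11249675-11266241) showed normalized counts of 66279, 55314 and 52501 for WT and 49991.5, 38987 and 43406 for hnRNPL-deficient mice. Every hnRNPL-deficient library was below every WT library. The log2 difference was -0.40 (SE 0.135, 95% interval -0.70 to -0.09, limma adjusted p = 0.0988), close to the threshold and smaller than 1.5-fold. The adjusted p ranged from 0.0124 to 0.366 over the alternative settings.

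**Figure D3:**
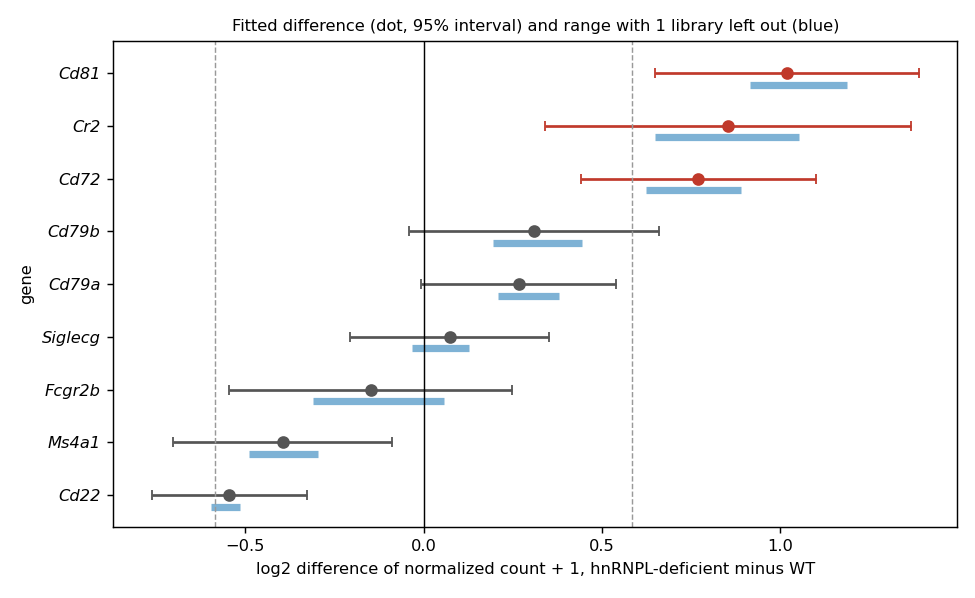
Log2 difference between hnRNPL-deficient and WT libraries (horizontal axis) for the 9 genes, with the 95% interval of the limma fit and the range when each library was left out. Cd81, Cr2 and Cd72 lie to the right of 0, Cd22 and Ms4a1 to the left, and the intervals of Cd79a, Cd79b, Siglecg and Fcgr2b include 0.

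Both groups held 2 male libraries and 1 female library, and the differences had the same sign within each sex for all 9 genes. In the male libraries the log2 difference was 0.96 for Cr2, 1.07 for Cd81, 0.76 for Cd72, -0.51 for Cd22 and -0.38 for Ms4a1. In the single female pair these were 0.64, 0.92, 0.79, -0.62 and -0.43. With males only, Cd72 had the same size of difference but an adjusted p = 0.115, and Cd22 an adjusted p = 0.171.

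Levels of different genes were compared per kilobase of merged exon. In WT cells Cd79a had 12787 normalized counts per kb and Cd79b 12368, followed by Ms4a1 with 9380 and Cd22 with 6550. Cd81 had 2630, Fcgr2b 1466, Cr2 495, Cd72 365 and Siglecg 321. In hnRNPL-deficient cells Cd81, at 5290 per kb, passed Cd22, at 4485, and the rest of the order was kept. The order depends on the length used. Per kb of the longest coding transcript, a choice made after seeing the data, Ms4a1 was first in WT, at 18872, and below both signalling chains in hnRNPL-deficient cells, at 14351, and Siglecg stood above Cd72 in WT. Overlap between neighbours was examined only in the order per kb of merged exon. There the WT libraries overlapped for Cd79a and Cd79b, Cd79b and Ms4a1, Cr2 and Cd72, and Cd72 and Siglecg. The hnRNPL-deficient libraries overlapped for Cd79a and Cd79b and for Cd81 and Cd22.

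**Figure D4:**
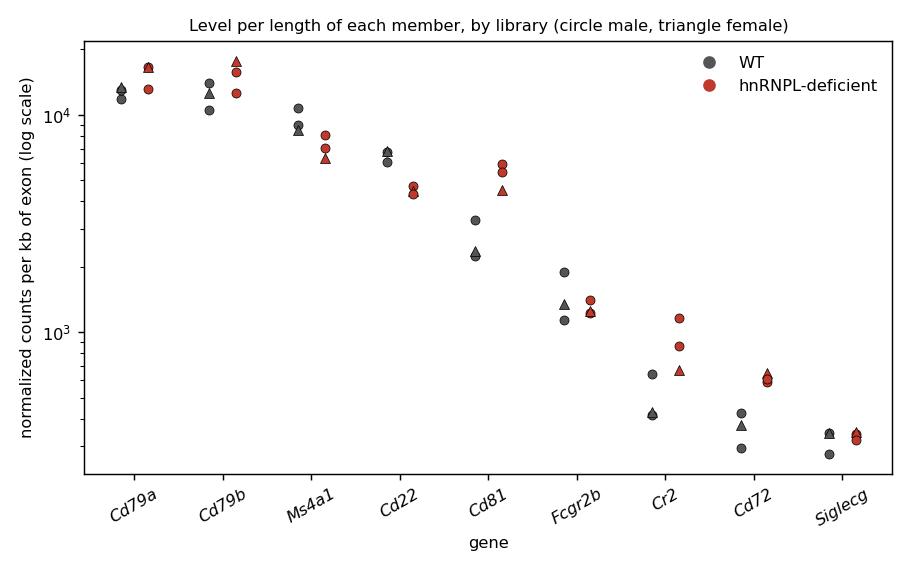
Normalized counts per kb of exon (log axis) of the 9 genes in each WT and hnRNPL-deficient library. Per kb of merged exon, the means of the signalling chains are the highest in both groups, and Cd81 and Cd22 exchange places in hnRNPL-deficient cells.

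The genes whose profile over the 6 libraries was nearest, by the root mean square difference of centred log2 values, were Ms4a6c (0.135), Mettl15 (0.144) and Gm16794 (0.153) for Cr2. For Cd81 they were Pde3b (0.0681), Klhl14 (0.0689) and Rfesd (0.0899). For Cd72 they were Mau2 (0.0371), Hrh2 (0.0417) and Zfp839 (0.057).

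CA-rich sites, 4 copies of CA with at most 2 bases between neighbours, were counted in the longest coding GENCODE transcript of each gene, since hnRNPL binds such RNA. Fcgr2b had 1.975 sites per kb, which ranked at the percentile 95.14 of the 11535 genes measured, and its longest run is the stretch in capitals in cagccCACACACAtgtgt, printed as the longest of the 9 genes. Cd22 had 1.258 sites per kb and Siglecg 1.168, while Cd79a (0.6863), Cd81 (0.6523), Ms4a1 (0.6504) and Cr2 (0.6439) were near the median of 0.6729. Cd72 had 0.3871 and Cd79b 0. The medians of all genes called higher and lower were 0.7207 and 0.6723. Introns were not examined.

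Genes that work with these receptors were counted in 10 lists. Of 100 listed genes 85 were tested, and 7 were called higher and 4 lower, with a median log2 difference of 0.03, beside the 7.28% and 4.08% of all genes tested that were called higher and lower. Among the called genes, Fcgrt and Ms4a4a had a mean under 10 in the lower group and entered the test through the higher one. Among partners of the receptor, 0 of 6 tested genes were called. The heavy chain genes Ighm and Ighd had log2 differences of 0.23 (adjusted p = 0.224) and -0.36 (adjusted p = 0.0402), and Igkc, the kappa light chain, had 0.00 (adjusted p = 0.992). Ighd was named after its values were seen.

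Among complement receptor ligands and relatives, 1 of 3 tested genes was called higher and 1 lower. Cd55, which limits complement on the cell's own surface, rose from 3008 to 23786.5 normalized counts (log2 difference 2.93, adjusted p = 0.000295). Cr1l, another complement regulator, fell from 3749 to 2430 (adjusted p = 0.0177). Of 9 tested tetraspanins and CD225 proteins, Ifitm2 rose (1.36, adjusted p = 0.00116), and Cd82 and Ifitm3 each fell by 0.78 on the log2 scale (adjusted p = 0.0061 and 0.0344).

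Other genes of the MS4A family were also counted. Of 7 tested, 5 were called higher and 0 lower: Ms4a4a, Ms4a4b, Ms4a6b, Ms4a6c and Ms4a6d. Of all genes tested, 7.28% were called higher and 4.08% lower. The median log2 difference over the 7 was 1.08, while Ms4a1, counted with the members and not here, had -0.40. Ms4a4a passed the filter through the hnRNPL-deficient libraries. Ms4a4c, the most abundant, had a log2 difference of 0.30 (adjusted p = 0.322), and Ms4a7 one of 0.51 (adjusted p = 0.419). Ms4a4b went from 249 to 827 normalized counts and Ms4a6b from 450.1 to 1257. These genes are close copies of each other, and how reads were split among them is uncertain.

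Among Fc receptors, Fcgrt averaged 18.7 (WT) and 2.88 (hnRNPL-deficient) normalized counts and passed the filter through the WT libraries, and 0 of the other 4 tested genes were called. The most abundant, Fcer2a, had a log2 difference of -0.09 (adjusted p = 0.753). Fcgr3 averaged 287 in WT and 160 in hnRNPL-deficient libraries (log2 difference -0.97, adjusted p = 0.141), and Fcgr4 had -0.91. Fcer1g, at 10.6 and 23.8, had 1.14 (adjusted p = 0.115). The median over the 5 tested Fc receptors was -0.91. Fcgr3, Fcgr4 and Fcer1g were named here after their values were seen. None of the 8 tested genes of sialic acid synthesis, which make the ligands of CD22 and Siglec-G, was called, nor were the 2 other ligands or the 9 other inhibitory receptors. The most abundant were St6gal1 (0.12), Cd24a (-0.18) and Btla (0.27), with the log2 difference of each in brackets. By adjusted p alone, the sialic acid genes Cmah (0.51) and Gne (0.42) were higher. So were the inhibitory receptors Pecam1 (0.53) and Pirb (0.57), and no gene of these lists was lower. Cmah, Gne, Pecam1 and Pirb were named after their values were seen. Of all genes tested, 10% were higher and 7.97% lower by adjusted p alone. None of the 20 listed genes of kinases, phosphatases, adaptors and other proteins that signal with the receptors was called. Their median log2 difference was -0.02, with 0.17 for the phosphatase gene Ptprc. None of the 16 transcription factors of B cells was called (median 0.01, with 0.01 for Pax5). By adjusted p alone, 1 of the 20 was higher and 0 lower, and 1 of the 16 was higher and 1 lower.

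**Figure D5:**
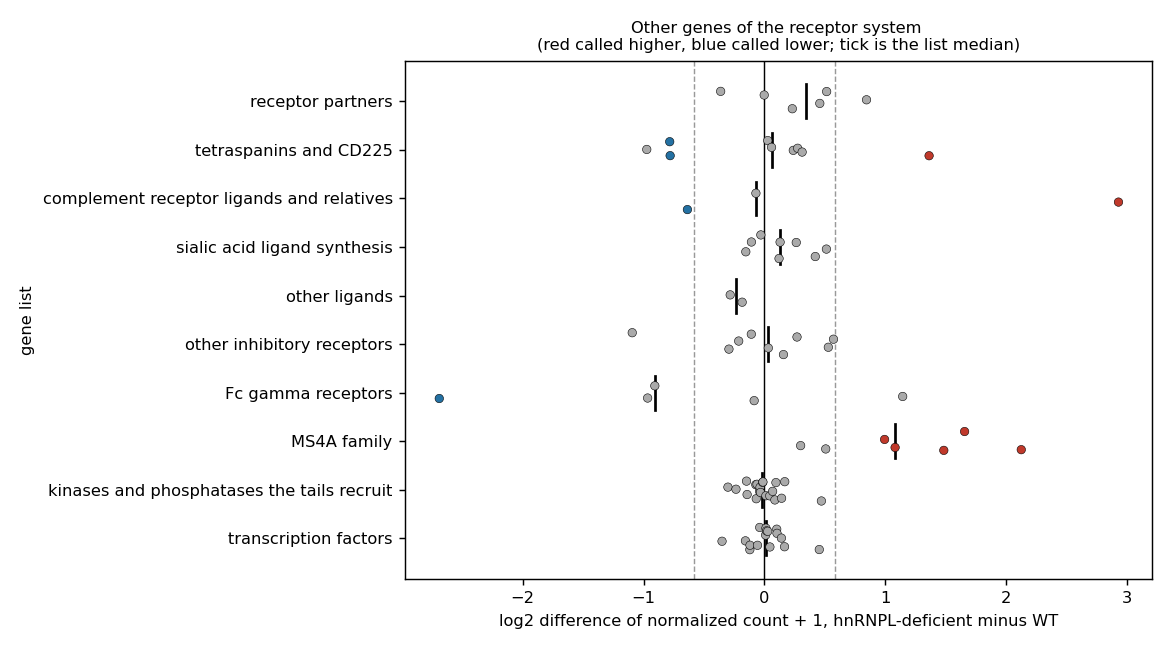
Log2 difference between hnRNPL-deficient and WT libraries for the 85 tested genes of the 10 lists, 1 row a list, with the genes called higher and lower coloured and the median of each list as a tick. The 7 tested MS4A genes other than Ms4a1 lie to the right of 0, and Cd55 is the gene farthest to the right.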

How the data were processed

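Each library is 1 sample, grouped by its title. Per the labels and methods, reads were trimmed with fastp 0.23.1, aligned to mm10 with STAR 2.7.9a and counted per gene, by strand, with featureCounts, and the authors divided the counts by DESeq2 1.38.2 size factors. The deposited values used here are these normalized counts, a signal per gene and library. The deposited table also holds the authors' own log2 fold changes and errors, test statistic (a score) and p-values, which were not used.

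Here log2(value + 1) was fitted with limma 3.58.1 (mean-variance trend, Benjamini-Hochberg over all genes with a mean of at least 10), in R 4.3.3, comparing 3 hnRNPL-deficient with 3 WT libraries. Fold changes in the fit are on this scale. Calls needed an adjusted p under 0.1 and 1.5-fold. Ratios were compared with exact permutation tests. As alternatives, edgeR 4.0.16 and DESeq2 1.42.0 were run on whole reads recovered for 5 libraries. An automatic check left out hnRNPL-deficient replicate 2, the only female library of its group. The fit was tested on simulated data. The genes named are the 9 members and, in each list, those called and the most abundant, except where the text says otherwise. Members and lists were chosen with earlier results of these data known. Promoter windows are from RefSeq. Some results are not reported here. Replicates were separate mice, and 3 against 3 limits precision.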

Additional observations from a re-analysis of the deposited data

How the results depend on the processing

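Of 171 log2 differences of the 9 genes under alternatives, 169 kept their sign and 163 kept both their sign and their call. The number of the 9 genes called higher went from 3 to 1 at an adjusted p under 0.05 and 2-fold, and the number called lower from 0 to 2 with no fold required and to between 0 and 1 with each library left out. Of the listed genes, those called higher went from 7 to 15 with no fold required, and those called lower from 4 to 1 at 0.05 and 2-fold, to 1 in males only and to between 2 and 5 with each library left out. Cr2 kept 0.85 without the mean-variance trend but lost its call (adjusted p = 0.111), and Cd72 lost it in males only (0.76). With each library left out, the log2 difference ranged from 0.65 to 1.05 for Cr2, from -0.60 to -0.52 for Cd22, from -0.03 to 0.13 for Siglecg, from -0.31 to 0.06 for Fcgr2b and from -0.13 to 0.02 for the ratio of Cd79a to Cd79b, which was 0.01 without hnRNPL-deficient replicate 2. Without WT replicate 1, the sign turned for Siglecg (-0.034), Fcgr2b (0.056) and the ratio of Cd79a to Cd79b (0.019). The cause was not tested. No scaling moved the median of all genes by more than 0.0552, but single genes moved further. Under quantile normalization the log2 differences were 0.42 for Cd79a, 0.46 for Cd79b, 0.95 for Cr2, 1.15 for Cd81 and -0.41 for Cd22. They were 0.08 for Siglecg, 0.79 for Cd72, -0.02 for Fcgr2b and -0.31 for Ms4a1. The fits by sex were chosen after seeing the data, and those of males rest on 2 libraries a group.

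Same-numbered libraries deviated together with correlations of 0.429, 0.32 and 0.0663, and differently numbered ones with -0.458 to 0.305. The highest of the latter was that of WT replicate 3 with hnRNPL-deficient replicate 2, the female libraries. These values do not settle whether the numbers mark pairs. The main fit used no pairing, as the methods of the study describe none. With the replicate number as a block, 3 of the 9 genes were called higher and 0 lower, 2773 genes were called in all, against 2003, and Cd79b passed the adjusted p alone (0.0791).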
